A study of Mus musculus with 3 samples.

Results

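The genes described are 9 transcription factors that drive neural progenitors into a neuronal lineage, 6 of the glutamatergic (Neurog1, Neurog2, Neurod1, Neurod2, Insm1, Eomes) and 3 of the GABAergic lineage (Dlx1, Dlx2, Dlx5). They were chosen by gene symbol, and 7 of the 9 had a row among the 16977 genes of the table. Neurog1 and Neurod2 had none, under these or older symbols, so their expression is not analysed here. RNA was sequenced, after removal of ribosomal RNA, from cultured neural stem cells of C57BL/6J mouse embryos at E12.5. A lentivirus had brought in either a hairpin against PHF2 (shPHF2, 2 libraries, stated to be biological replicates) or a control hairpin (shControl, 1 library), so both groups carry a virus and a hairpin. PHF2 is a PHD-finger protein of a histone demethylase family. All were grown with EGF and FGF, which keep neural stem cells dividing. The sources used here do not give the brain region, the number of hairpins or whether a clone was picked.

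Neurons of the embryonic forebrain come from progenitors that divide and then commit to a transmitter type. Neurogenins are basic helix-loop-helix (bHLH) factors that start glutamatergic neurogenesis in the pallium; as dimers with E proteins they bind the E-box and switch on Neurod1, Neurod2, Insm1 and Eomes in cells that leave the stem cell state. In the ventral forebrain Gsx2 acts early, and the homeobox factors Dlx1, Dlx2 and Dlx5 follow and promote GABAergic fate. Notch signalling, through Hes1 and Hes5, and the ID proteins hold the bHLH factors back.

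Values are normalised reads, that is, each gene's read count after division by a library size factor. The table held 37171026 and 26302177 reads in genes for shPHF2 replicates 1 and 2, and 32898139 for shControl. Phf2 itself had 985 and 714 normalised reads in shPHF2 replicates 1 and 2, against 2593 in shControl (log2 fold change -1.63, SE 0.24, limma, adjusted p = 0.0085). The control is a single library, so its own spread could not be estimated. Counting intervals below are exact 95% Poisson or binomial intervals and cover counting error only. The 10 stem cell markers were all present, from Hes5 at 14.5 to 39.9 up to Vim and Nes, which lay between 77235 and 132040 normalised reads over the 3 libraries.

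The upstream sequence was read for the 7 members that have an entry in RefSeq's promoter table (GRCm38.p6), which include Neurog1 and Neurod2 and leave out Insm1 and Dlx5. In the 250 bases before the annotated start, the E-box CANNTG, which reads the same on both strands, occurred in 3 of these 7 (Neurod1, Neurod2 and Dlx2) and in 66.2% of 32851 promoters of the same length. The proneural form CAGATG (or CATCTG on the other strand) occurred in Neurod2 and in 14.4% of promoters, and CAGCTG in no member and in 13.0% of promoters. The GC content of the 7 windows ran from 46.4% in Eomes to 71.2% in Neurog1, against a median of 52.4% over all promoters. Their observed-to-expected CpG ratio ran from 0.621 in Eomes to 0.923 in Neurog1, each above the median of 0.374 over all promoters. By the GENCODE M21 annotation the Dlx1 window (chr2:71529195-71529444) lies wholly inside its gene. The Neurod1 window lies partly inside its gene, and those of Neurod2 and Neurog2 by a few bases. The sequences below are shown for Neurod1, whose shPHF2 values stood farthest above the control, for Eomes, whose shPHF2 libraries stood on opposite sides of it, and for Dlx2, as a GABAergic member. Each runs 5′ to 3′ on the strand of its gene, with E-boxes in capitals, and stops before the first base that GENCODE M21 gives to that gene. Neurod1 is chr2:79456752-79456886 (minus strand), Eomes is chr9:118477939-118478188 (plus strand) and Dlx2 is chr2:71546755-71547004 (minus strand). The Neurod1 sequence holds a CATATG, Dlx2 holds CACGTG at 2 places and Eomes has no E-box in the window. These are letter matches and not measured binding sites.
Neurod1: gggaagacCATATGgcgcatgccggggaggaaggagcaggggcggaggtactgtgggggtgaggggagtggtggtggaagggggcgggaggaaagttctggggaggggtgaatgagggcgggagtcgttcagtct
Eomes: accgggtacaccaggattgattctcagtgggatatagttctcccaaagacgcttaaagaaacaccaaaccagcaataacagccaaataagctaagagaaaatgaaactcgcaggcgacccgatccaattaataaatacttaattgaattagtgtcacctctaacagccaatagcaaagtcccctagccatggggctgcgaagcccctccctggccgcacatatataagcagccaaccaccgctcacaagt
Dlx2: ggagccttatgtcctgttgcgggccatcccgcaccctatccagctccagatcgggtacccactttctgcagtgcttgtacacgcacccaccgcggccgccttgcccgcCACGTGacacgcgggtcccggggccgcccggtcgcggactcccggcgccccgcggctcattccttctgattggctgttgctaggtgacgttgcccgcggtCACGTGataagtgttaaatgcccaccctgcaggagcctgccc

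Most of the 7 members with a row had few reads in each library. Insm1 was well covered, Eomes, Neurod1 and Dlx1 had 2 to 85 reads, and Neurog2, Dlx2 and Dlx5 had 0 to 4 reads a library. No member passed the test of shPHF2 against shControl. Neurod1 was higher and Insm1 lower in both shPHF2 libraries, at adjusted p of 0.061 and 0.066 (limma). Under other settings of the fit the adjusted p rose to 0.18 for Neurod1 and 0.19 for Insm1 (limma). Eomes and Dlx1 differed more between the shPHF2 libraries than their mean did from the control. Of the 7 members with a row, 4 (Insm1, Eomes, Neurod1, Dlx1) reached the mean of 10 normalised reads required for testing, and Neurod1 reached it through its shPHF2 values. Of those 4, 0 had an adjusted p under 0.05 (limma on log2(value + 1), Benjamini-Hochberg over 14148 genes), where 14.3% of all genes tested did (7.22% higher and 7.11% lower in shPHF2). At an unadjusted p under 0.05 there were 2, Neurod1 and Insm1, where 31.2% of all genes were. On the recovered reads edgeR called 0 of the 4, where it called 15.2% of genes. DESeq2, which called 14.0% of genes, gave no adjusted p for Neurod1 and Dlx1 and called neither Insm1 nor Eomes. In limma with no filter on low values, with quantile normalization or without the mean-variance trend, 0 genes passed (3893, 3700 and 3300 at an unadjusted p under 0.05), so the limma calls given here for other genes are lost under those settings.

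**Figure D1:**
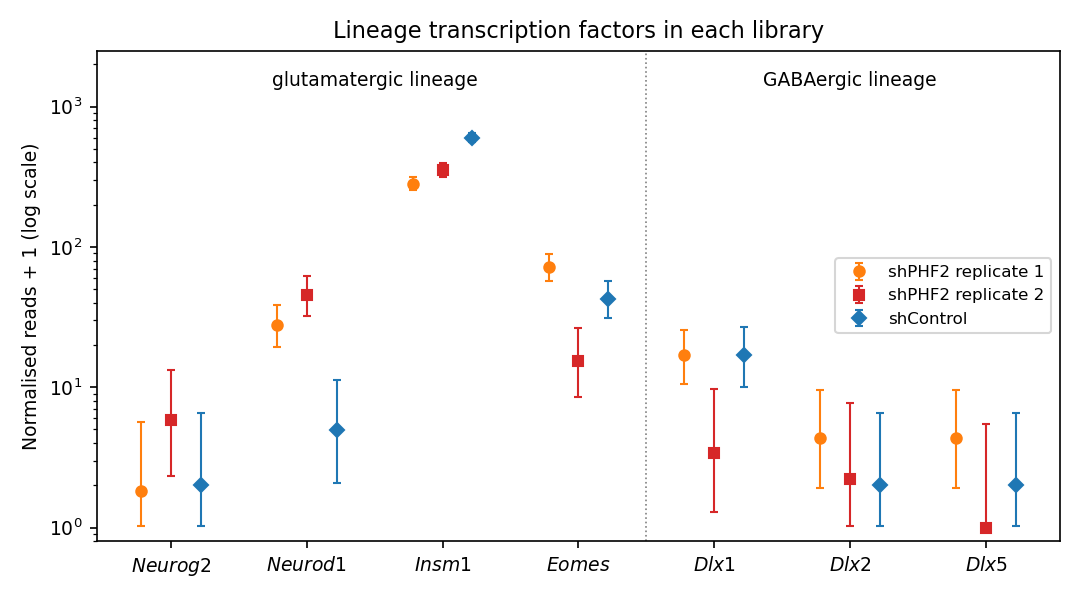
Normalised reads plus 1 (log axis) of the 7 members with a row, in shPHF2 replicate 1, shPHF2 replicate 2 and shControl, with 95% Poisson counting intervals as bars. Insm1 sits at 282 and 353 normalised reads in shPHF2 and 601 in shControl, Neurod1 at 26.7 and 44.6 in shPHF2 and 3.99 in shControl, and Dlx2, Dlx5 and Neurog2 lie below 5 in each library.

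Of the neurogenins, which start the cascade, only Neurog2 had a row. Neurog2 (chromosome 3, 127633135 to 127635631, plus strand) had 1 and 4 reads in shPHF2 replicates 1 and 2, against 1 read in shControl. These are 0.834 and 4.82 normalised reads in shPHF2 and 0.997 in shControl. The ratio of shPHF2 to shControl reads was 2.47 (counting interval 0.277 to 116.9), so a difference was not detectable at this depth. Reads of 3 or fewer are at the limit that a count of 0 allows (3 reads, or 2.50, 3.62 and 2.99 normalised reads in shPHF2 replicate 1, shPHF2 replicate 2 and shControl).

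Neurod1 (chromosome 2, 79452521 to 79456751, minus strand) encodes a bHLH factor that acts after the neurogenins in neuronal differentiation. It had 26.7 and 44.6 normalised reads in shPHF2 replicates 1 and 2, from 32 and 37 reads, against 3.99 in shControl, from 4 reads. Both shPHF2 libraries lay above the control, with counting intervals of 18.2 to 37.7 and 31.4 to 61.5 that do not meet the control's 1.09 to 10.2. The mean was 35.6 ± 12.7 (SD, n = 2) in shPHF2, and the ratio of shPHF2 to shControl reads was 8.53 (counting interval 3.18 to 32.2), or 6.69 from replicate 1 and 11.2 from replicate 2. The log2 fold change was 2.83 (SE 0.84, 95% interval 0.89 to 4.78), with 2.47 in replicate 1 and 3.19 in replicate 2. It did not pass (limma, adjusted p = 0.061; unadjusted p = 0.010). Both shPHF2 libraries lay above the control for 41.4% of all genes tested. The authors' deposited table gave a log2 fold change of 3.16 with a standard error of 1.45 for Neurod1, with no adjusted p. Neurod1 shares 201 exonic bases with Cerkl on the same strand (GENCODE M21), and 154 with the noncoding Gm26755 on the other strand, which had no row. Cerkl, looked up after Neurod1's values were seen, had 1.67 and 3.62 normalised reads in shPHF2 and 2.99 in shControl.

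Insm1 (chromosome 2, 146221921 to 146225020, plus strand) encodes a zinc-finger repressor that promotes the formation of basal progenitors and is used in both lineages. It had 282 and 353 normalised reads in shPHF2 replicates 1 and 2, from 338 and 293 reads, against 601 in shControl, from 603 reads. Both shPHF2 libraries lay below the control, as they did for 41.8% of all genes tested. The mean was 318 ± 50.5 (SD, n = 2) in shPHF2, which is 52.8% of the control. The log2 fold change was -0.93 (SE 0.28, 95% interval -1.58 to -0.27), with -1.09 in replicate 1 and -0.77 in replicate 2. It did not pass (limma, adjusted p = 0.066), and the authors' deposited table gave -0.92 with an adjusted p of 0.089. The shPHF2 libraries differed from each other by 0.33 on the log2 scale, against a median of 0.21 over the 3173 genes within 2-fold of its mean level. In bulk RNA, fewer cells that express a gene and less of its RNA per cell cannot be told apart.

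Eomes (chromosome 9, 118478212 to 118486132, plus strand), also called Tbr2, encodes the T-box factor that marks intermediate progenitors of the pallium. It shares 118 exonic bases with the antisense gene Gm33460, which had no row (GENCODE M21). Eomes had 70.9 and 14.5 normalised reads in shPHF2 replicates 1 and 2, from 85 and 12 reads, against 41.9 in shControl, from 42 reads. Replicate 1 lay above the control and replicate 2 below it, at log2 fold changes of 0.75 and -1.47. The ratio of replicate 1 to replicate 2 was 4.90 (counting interval 2.66 to 9.85), so the replicates differed by more than counting error. Their difference of 2.22 on the log2 scale compares with a median of 0.53 over the 1633 genes within 2-fold of its mean. The fitted log2 fold change was -0.36 (SE 0.92, 95% interval -2.49 to 1.77; limma, adjusted p = 0.83), and its sign turned with edgeR (0.048), DESeq2 (0.045) and without replicate 2 (0.75).

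The Dlx genes lie in pairs that face each other, and Dlx1 and Dlx2 are such a pair on chromosome 2. Dlx1 (71528113 to 71533981, plus strand) encodes a homeobox factor of ventral forebrain progenitors and interneurons. It had 15.8 and 2.41 normalised reads in shPHF2 replicates 1 and 2, from 19 and 2 reads, against 15.9 in shControl, from 16 reads. Replicate 1 stood level with the control, at a log2 fold change of -0.01, and replicate 2 below it, at -2.31. The ratio of replicate 1 to replicate 2 was 6.57 (counting interval 1.58 to 58.2). The fitted log2 fold change was -1.16 (SE 1.26, 95% interval -4.07 to 1.75; limma, adjusted p = 0.58), and it rests on replicate 2. Dlx1 shares 335 exonic bases with the antisense gene Dlx1as (GENCODE M21). The sources used here do not say whether counting used the strand, so how reads over the shared bases were assigned is not known. The same holds for the bases that Neurod1 and Eomes share with genes on the other strand. Dlx1as had 1.67 and 1.21 normalised reads in shPHF2 and 4.98 in shControl.

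Dlx2 (chromosome 2, 71543408 to 71546754, minus strand), a homeobox factor that promotes GABAergic fate, had 4 and 1 reads in shPHF2 replicates 1 and 2, against 1 in shControl. The ratio of shPHF2 to shControl reads was 2.47 (counting interval 0.277 to 116.9). Dlx5 (chromosome 6, 6877805 to 6882085, minus strand), which acts downstream of Dlx1 and Dlx2, had 4 and 0 reads in shPHF2, against 1 in shControl. The ratio was 1.98 (counting interval 0.196 to 97.4). Neither gene gave a detectable difference at this depth.

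**Figure D2:**
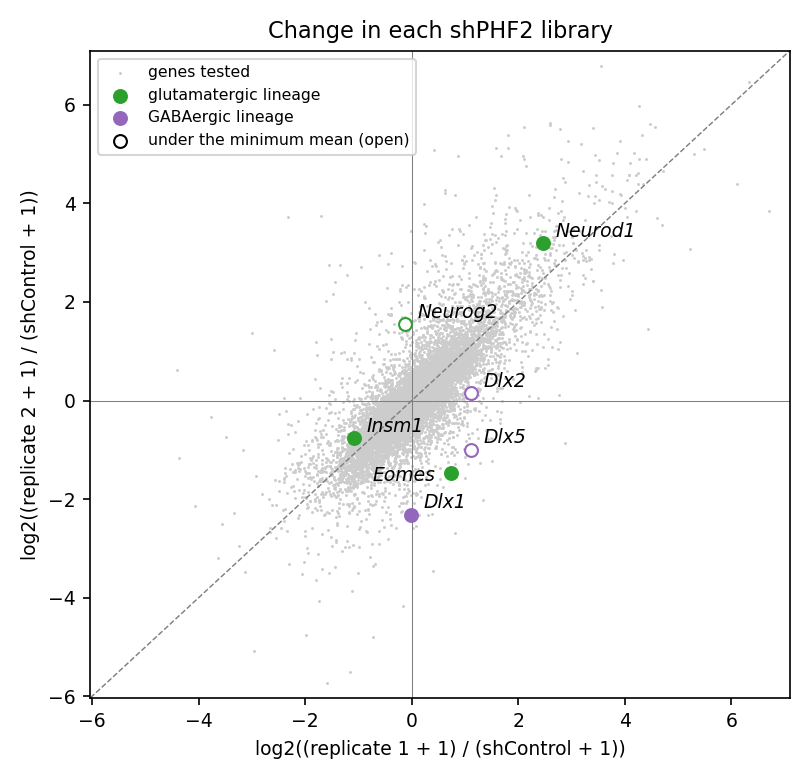
Log2 fold change over shControl in shPHF2 replicate 1 (horizontal) and replicate 2 (vertical), on the log2(value + 1) scale, for the 14148 genes tested (grey) and the 7 members (coloured by lineage, open where the mean is under 10); both axes share the control library, which alone draws points to the dashed diagonal. Neurod1 (2.47 and 3.19) and Insm1 (-1.09 and -0.77) lie near the diagonal, and Eomes (0.75 and -1.47) and Dlx1 (-0.01 and -2.31) lie below it.

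Per kilobase of exon (GENCODE M21), the level of Insm1 was 90.9 and 114 normalised reads in shPHF2 replicates 1 and 2, and 194 in shControl, above the other members in each library. In shControl the order of levels continued with Eomes at 10.1, Dlx1 at 2.96, Neurod1 at 1.46, Neurog2 at 0.448, Dlx5 at 0.440 and Dlx2 at 0.349 per kilobase. The last 3 rest on 1 read each and cannot be ordered, and the counting intervals of Dlx1 and Neurod1 meet. In shPHF2 the place after Insm1 was held by Eomes in replicate 1 (17.1, with Neurod1 at 9.78) and by Neurod1 in replicate 2 (16.3, with Eomes at 3.48), so their order was not stable between the shPHF2 libraries. By lineage, the normalised reads of the 4 glutamatergic members summed to 380 and 417 in shPHF2, and 648 in shControl, of which Insm1 made up most. Without Insm1 the sums were 98.4 and 63.9 in shPHF2, and 46.8 in shControl. The 3 GABAergic members summed to 22.5 and 3.62 in shPHF2, and 17.9 in shControl. The glutamatergic sum thus exceeded the GABAergic one in each of the 3 libraries, with and without Insm1. These sums set 4 genes against 3 and are not scaled for gene length. Without Insm1, most of the glutamatergic sum was Eomes in shPHF2 replicate 1 (70.9) and shControl (41.9), and Neurod1 in replicate 2 (44.6). No test of the difference between the lineages was made.

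None of the other glutamatergic genes tested passed. Of 16 listed, 9 had a row and 7 were tested, and 0 passed in either direction (limma; 2 at an unadjusted p under 0.05; 0 by edgeR and 0 by DESeq2). Over all genes tested, limma called 14.3%, and 31.2% had an unadjusted p under 0.05. The median log2 fold change of the 7 was -0.25, beside -0.01 over all genes tested. Pax6, the radial glia factor that acts before Neurog2 and Eomes, had 1046 and 691 normalised reads in shPHF2, against 1392 in shControl (log2 fold change -0.71, SE 0.27, limma, adjusted p = 0.12). Emx2, a factor of pallial progenitors named after its values were seen, had 554 and 675 in shPHF2, against 364 in shControl (0.75, SE 0.26, limma, adjusted p = 0.091). Tbr1, which follows Eomes in postmitotic neurons, had 5.00 and 1.21 normalised reads in shPHF2, against 9.97 in shControl, under the minimum for testing. Slc17a6, a vesicular glutamate transporter gene, had no row.

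Among GABAergic genes, the synthesis enzyme Gad1 rose, and no transcription factor of the list passed. Of 18 listed, 10 had a row and 6 were tested, and 1 rose and 0 fell (limma; the same gene was the only call by edgeR and by DESeq2), where 14.3% of all genes tested were called by limma. The median log2 fold change was 0.74 (0.29 in replicate 1 and 0.74 in replicate 2). Gad1 had 720 and 500.3 normalised reads in shPHF2, against 138 in shControl (log2 fold change 2.12, SE 0.31, limma, adjusted p = 0.0085). Gad2, the other synthesis enzyme, had 0 and 8.44 normalised reads in shPHF2 and 0 in shControl. Dlx6os1 (Dlx6as1 in the table), a long noncoding RNA gene beside Dlx5, had 0.834 and 6.03 normalised reads in shPHF2 and 0.997 in shControl. Gsx2 and Dlx6 had no row. Gsx1, named after its values were seen, had 37.5 and 480 normalised reads in shPHF2, against 23.9 in shControl, so its mean rests on replicate 2 (log2 fold changes of 0.63 and 4.27; limma, adjusted p = 0.21).

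Of the genes that hold bHLH factors back or pair with them, the Notch ligand Jag1 and the ID genes Id1 and Id2 rose and the ligand Dll1 fell. All 17 were tested, and 3 rose and 1 fell (limma; 3 and 1 by edgeR, 4 and 1 by DESeq2), where limma called 7.22% of all genes tested higher and 7.11% lower. The median log2 fold change was -0.03. Id2, whose product sequesters E proteins, had 3105 and 4017 normalised reads in shPHF2, against 955 in shControl (log2 fold change 1.89, SE 0.21, limma, adjusted p = 0.0047). Id1 had 1003 and 1063 in shPHF2, against 431 in shControl (1.26 on the log2 scale; limma, adjusted p = 0.013). Jag1 had 7758 and 6624 in shPHF2, against 3241 in shControl (1.15; limma, adjusted p = 0.011). Dll1, a ligand that proneural factors switch on, had 742 and 952 in shPHF2, against 1660 in shControl (-0.98; limma, adjusted p = 0.029). The Notch effector Hes1 had 1735 and 1960 in shPHF2, against 2056 in shControl (limma, adjusted p = 0.61). Hes5 had 20.0 and 14.5 in shPHF2, against 39.9 in shControl (-1.18, SE 0.75, limma, adjusted p = 0.33).

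Of the proneural targets and pan-neuronal genes, Celsr3 and Btg2 rose and Sox11 and Elavl4 fell. Of 20 listed, 17 were tested, and 2 rose and 2 fell (limma; 2 and 2 by edgeR, 2 and 3 by DESeq2), beside the same 7.22% higher and 7.11% lower over all genes tested. Their median log2 fold change was 0.04. Celsr3, an adhesion receptor of axon guidance, had 627 and 523 normalised reads in shPHF2, against 88.7 in shControl (log2 fold change 2.68, SE 0.30, limma, adjusted p = 0.0047). Btg2, an antiproliferative gene of neurogenic divisions, had 2159 and 2859 in shPHF2, against 1045 in shControl (1.25; limma, adjusted p = 0.013). Sox11, a factor of immature neurons that acts after the proneural genes, had 9586 and 8315 in shPHF2, against 21957 in shControl (-1.30; limma, adjusted p = 0.0089). Elavl4, a neuronal RNA-binding protein gene, had 1216 and 1600 in shPHF2, against 2533 in shControl (-0.86; limma, adjusted p = 0.038). Tubb3, a neuronal tubulin, had 198 and 346 in shPHF2, against 104 in shControl (1.33, SE 0.42, limma, adjusted p = 0.070). Dcx, a microtubule protein of migrating neurons, had 27.5 and 106 in shPHF2, on opposite sides of the 38.9 in shControl (limma, adjusted p = 0.74).

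**Figure D3:**
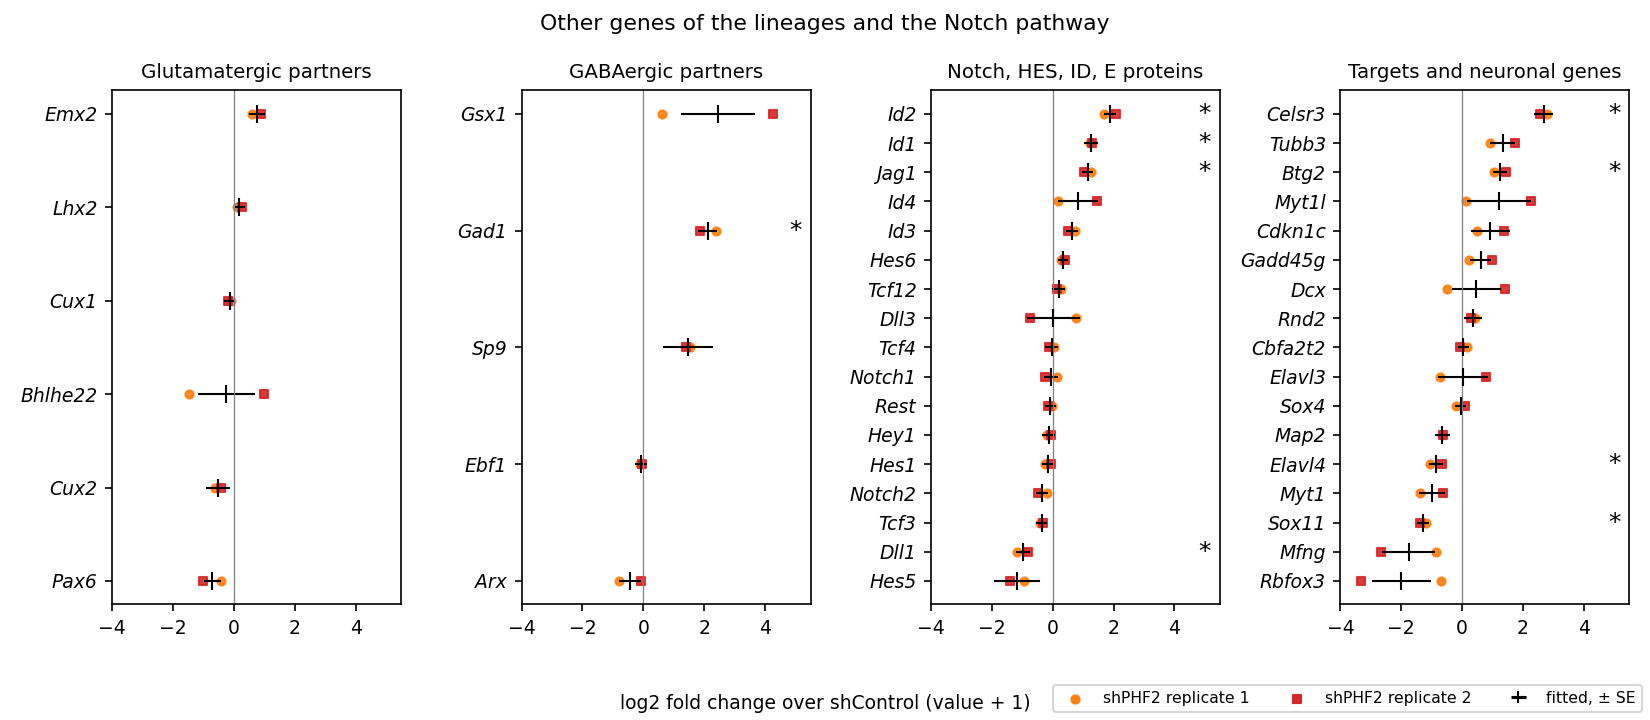
Log2 fold change of shPHF2 over shControl, on the log2(value + 1) scale, for tested genes of 4 lists, with each shPHF2 library as a point, the fitted value and its SE as a cross, and an asterisk where the adjusted p is under 0.05 (limma). Gad1, Id1, Id2, Jag1, Celsr3 and Btg2 lie to the right and Dll1, Elavl4 and Sox11 to the left with an asterisk, while Hes1 lies near 0.

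By the pair of log2 fold changes in the shPHF2 libraries (Euclidean distance, 47 tested genes of these lists, 3 libraries), the genes nearest to Insm1 were Dll1 (distance 0.08) and Elavl4 (0.11). Those nearest to Neurod1 were Celsr3 (0.73) and Gad1 (1.34). Eomes was nearest to Dll3 (0.72), and Dlx1 to Mfng (0.91) and Rbfox3 (1.22). Distances over 2 log2 fold changes that share a control are a description of these libraries.

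Markers of other cell types were checked beside these values. Over all genes tested, limma called 7.22% higher and 7.11% lower, and 31.2% had an unadjusted p under 0.05. These shares stand beside each marker count below. Of 36 markers of astrocytes, oligodendrocyte lineage, microglia, endothelium and pericytes, erythroid cells and fibroblasts, 30 had a row, 18 were tested, 1 rose and 0 fell (limma, edgeR and DESeq2 alike; 5 at an unadjusted p under 0.05 by limma). The gene that rose was S100b, at 1094 and 850.0 normalised reads in shPHF2 and 331 in shControl. The 7 astrocyte markers, all tested, had a median log2 fold change of 1.42, against 0.06 over the 18. That median is the value of Aldh1l1, which was 0.06 in replicate 1 and 2.79 in replicate 2. The 7 summed to 8863 and 7608 in shPHF2, and 9846 in shControl. Slc1a2 (0.60) was higher in both shPHF2 libraries, and Aldoc (-0.95) and Gja1 (-0.53) were lower in both. Of the astrocyte markers, Aqp4 had 6.67 and 37.4 in shPHF2 and 0 in shControl (limma, adjusted p = 0.092). Gfap had 10.8 and 20.5 in shPHF2, against 1.99 in shControl (limma, adjusted p = 0.18). Both, and Rgs5 below, reached the mean of 10 required for testing through their shPHF2 values. The pericyte marker Rgs5 had 24.2 and 38.6 in shPHF2, against 2.99 in shControl (limma, adjusted p = 0.061). Pdgfrb, also a pericyte marker, had 1 and 2 reads in shPHF2 and 1 in shControl. The microglial marker P2ry12 had 204 and 213 in shPHF2, against 99.7 in shControl (limma, adjusted p = 0.085). The microglial marker Csf1r was higher in replicate 1 only (log2 fold changes of 1.25 and -0.01; limma, adjusted p = 0.70). The microglial markers Aif1 and Tmem119 had few reads, given below, and Cx3cr1 and Itgam had no row. Of the 5 at an unadjusted p under 0.05, Pdgfra, a marker of oligodendrocyte lineage and fibroblasts, was the only one lower. It had 303 and 159 in shPHF2, against 539 in shControl (limma, adjusted p = 0.071). The endothelial marker Kdr was also lower, at 156 and 77.2 in shPHF2, against 200 in shControl (limma, adjusted p = 0.27). Apart from S100b, these markers were named after their values were seen. Cldn5 was at 0 in both shPHF2 libraries, with 4 reads in shControl. Col1a1 was at 0 in replicate 2, with 1 read in replicate 1 and 3 in shControl. Aqp4, Aif1, Tmem119 and Col1a2 were at 0 in shControl. Their reads in shPHF2 replicates 1 and 2 were 8 and 31, 3 and 2, 5 and 1, and 1 and 4. Apart from Aqp4, none of these genes exceeded 5 reads in any library. The summed level of the list was 74218 and 92182 in shPHF2, and 79905 in shControl, most of it Olig1 and Olig2. Of 10 neuronal markers, 9 were tested, 0 rose and 1 (Elavl4) fell (limma; 3 at an unadjusted p under 0.05; 0 and 1 by edgeR, 0 and 2 by DESeq2), and their sum was 44449 and 48042 in shPHF2, and 66675 in shControl. Map2 made up most of it; without Map2 the sum was 6514 and 9523 in shPHF2, and 6655 in shControl. Of 10 stem cell markers, 1 rose (Sox2; 0.68 on the log2 scale, limma, adjusted p = 0.048) and 0 fell; 3 had an unadjusted p under 0.05, edgeR called 0 of them and DESeq2 called 3 higher. The part of these markers in the values of the lineage factors was not tested.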

How the data were processed

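Per the labels' protocols, libraries came from a stranded total RNA kit with ribosomal RNA depletion. HISAT2, HTSeq, DESeq2 and the build mm10 are named in the submitters' processing notes; the sources used here do not give versions, the annotation or the strand setting. The deposited table gives, per the file headers and the values, a signal in which the authors divided read counts by DESeq2 size factors. Values were whole multiples of a step in 100% of cases (within 0.001), so whole reads were recovered, with size factors of 1.20 and 0.829 for shPHF2 replicates 1 and 2 and 1.00 for shControl. Beside these, the authors deposited their DESeq2 comparison, with a log2 fold change, its standard error, a Wald score, and a p-value before and after adjustment. Its 4 rows that name no gene held 61.4% to 61.5% of the reads and were left out.

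shPHF2 was compared with shControl by limma 3.58.1 (lmFit, eBayes with trend, R 4.3.3) on log2(value + 1), two-sided, over 14148 genes with a mean of at least 10, at a Benjamini-Hochberg adjusted p under 0.05. The 1 residual degree of freedom comes from shPHF2, moderated with a prior of 6.94 degrees. The fit takes the spread of shPHF2 as that of the lone control. The added 1 makes the fold change of a low gene smaller in each library. Where the shPHF2 libraries differ, as for Dlx1, the fit can also give a larger change (-1.16) than edgeR (-0.73) or DESeq2 (-0.78). Alternatives were other pseudocounts, filters and scalings, no trend, edgeR 4.0.16 and DESeq2 1.42.0 on recovered reads, and leaving out each shPHF2 replicate. On simulated data with this design the limma and edgeR fold changes followed, on average, those put in. The share of false calls was above the nominal threshold in each run. Far fewer genes were changed there than were called here, so the size of that share cannot be carried over. Named were all members, up to 6 called genes of each list, and Phf2, Gsx2, Dlx6, Dlx6os1, Tbr1, Gad1, Gad2, Slc17a6, Pax6, Tubb3, Dcx, Hes1 and Hes5. Values of 2 tested genes of the lists, which stay in the list counts, are not reported here. Members and lists were chosen with earlier results of these data known. Of the other Dlx genes listed, Dlx3, Dlx4 and Dlx6 had no row.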

Additional observations from a re-analysis of the deposited data

How the results depend on the processing

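No member with an adjusted p was called under any of the 9 alternatives that give a test; DESeq2 gave none for Neurod1 and Dlx1. The adjusted p ranged from 0.052 to 0.18 for Neurod1 and from 0.052 to 0.19 for Insm1, both lowest with scaling by the trimmed mean of M-values, and the log2 fold change from 2.08 to 3.19 for Neurod1 and from -1.09 to -0.77 for Insm1 over all alternatives. Eomes changed sign with edgeR (0.048), DESeq2 (0.045) and without shPHF2 replicate 2 (0.75), and stood at -1.47 without replicate 1. Dlx1 ran from -2.31 without replicate 1 to -0.01 without replicate 2. The count over all genes fell to 0 higher and 0 lower with no filter, with quantile normalization and without the trend, where an unadjusted p under 0.05 was found for 3893, 3700 and 3300 genes; the cause was not tested. It kept within 1.5 times of 1021 higher and 1006 lower genes under the other 6 alternatives. A minimum mean of 50 left Neurod1, Eomes and Dlx1 untested. With 1 shPHF2 library left out there is no residual degree of freedom, so those are values with no test. No paired analysis was possible because shControl has 1 library. Depth limits Neurog2, Dlx2 and Dlx5, at 0 to 4 reads a library.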
